A study of Homo sapiens with 10 samples.

Results

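The genes described here carry proteins into the endoplasmic reticulum (ER), attach N-linked glycans to them and ship them out in COPII vesicles. They comprise the signal recognition particle (SRP), the SEC61 translocon, signal peptidase, the oligosaccharyltransferase, ALG enzymes, the ER glucosidases, the COPII coat and the receptors that sort or retrieve cargo. Members were taken from a list of 57 genes, and 34 of them had a named probe set among the 14884 genes measured. Each gene is represented by its brightest probe set, and only SEC62 had more than a single probe set. The other 23 genes were not analysed here: SRPRB, SEC61G, SSR1, SSR2, SSR3, SSR4, STT3B, ALG1, ALG2, ALG3, ALG5, ALG6, ALG8, ALG12, GANAB, SEC13, SEC24A, SEC24B, SEC24C, SEC24D, SEC31A, LMAN1 and KDELR2.

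Groups of MCF10A cultures were compared, H2A.X-KO cells, in which the gene of the histone variant H2A.X was knocked out, and WT cells, the parental line, with 5 Affymetrix arrays each. MCF10A is an immortalised, non-tumorigenic line of human mammary epithelium. All cultures had the same medium, with 5% horse serum, EGF at 20 ng/ml, insulin at 10 ug/ml, hydrocortisone, cholera toxin and antibiotics, and were harvested after 48 h. The labels do not say how the knockout was made, whether it is a single clone, or whether the 5 samples of a group were separate cultures, so the spread that the p-values rest on may be purely technical. The series as a whole asked how H2A.X relates to epithelial-mesenchymal transition.

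Proteins bound for secretion or for membranes begin with a signal sequence that SRP recognises on the ribosome. SRP docks at its receptor, the chain passes through the SEC61 channel, signal peptidase removes the signal sequence, and the oligosaccharyltransferase transfers a preassembled glycan from a lipid carrier to asparagine residues. Folded cargo leaves in vesicles coated by COPII, while ER residents that escape are brought back by KDEL receptors in COPI vesicles. In many cell types the unfolded protein response, through the transcription factors XBP1 and ATF6, raises transcription of many of these genes when secretory load is high.

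Values are log2 signals, and differences are H2A.X-KO minus WT on that scale, so -1 means that the signal was at 50% of its WT level. Differences were tested with limma over all 14884 genes and a gene passed at a Benjamini-Hochberg adjusted p under 0.05. Array medians were 4.26 to 4.35. Arrays correlated at 0.991 to 0.996 inside a group and at 0.975 to 0.979 across groups, and H2A.X-KO replicate 1 stood apart from its group on the second principal component. The knocked out gene was not analysed here, so the labels were not checked against it. Of 10 basal breast epithelial markers 4 were measured, KRT5, KRT14, EGFR and SFN, and their group means of 8.26 to 11.10 all lay above the median of all gene means, 5.49. All 4 rose, with a median difference of 0.73, and their summed log2 signal was 42.6 to 43.3 on H2A.X-KO arrays and 38.3 to 38.9 on WT arrays. Among markers of other cell types, the fibroblast and endothelial sums lay apart between the groups, while the immune and adipocyte sums overlapped. The summed log2 signal of 4 of 9 fibroblast markers was 20.8 to 21.9 on H2A.X-KO arrays and 18.1 to 19.1 on WT arrays, with DCN and FBLN1 higher and DPT lower in H2A.X-KO cells, and LUM at a mean of 3.08 in H2A.X-KO cells and 3.17 in WT cells. The sum of 4 of 6 endothelial markers was 18.5 to 19.5 on H2A.X-KO arrays and 16.9 to 17.4 on WT arrays, with KDR the only marker that passed, while PECAM1 and VWF had means of at most 4.01. Sums of 3 of 7 immune markers were 18.8 to 19.3 on H2A.X-KO arrays and 19.3 to 19.6 on WT arrays, with CD14 and CD68 lower and CSF1R higher in H2A.X-KO cells. Sums of 3 of 5 adipocyte markers were 10.75 to 11.47 on H2A.X-KO arrays and 10.96 to 11.41 on WT arrays. Their part in the results below was not tested. In bulk RNA, fewer cells of a type and less RNA per cell cannot be told apart.

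Promoter sequences are shown for the KDEL receptor gene KDELR3 and the SRP gene SRP19, which are among the 3 members that fell furthest and hold a motif read by XBP1 and ATF6, for SEC62, which holds the same motif and did not pass, and for the signal peptidase gene SEC11C, which fell furthest and holds none. Each line is the 250 bases before the annotated start, from RefSeq on GRCh38.p14, written along the gene's own strand, which is the plus strand in all 4. Capitals mark the UPRE core, which reads TGACGTGG on the opposite strand. KDELR3 is at chr22:38467846-38468095, SRP19 at chr5:112861037-112861286, SEC62 at chr3:169966557-169966806 and SEC11C at chr18:59139634-59139883.
KDELR3: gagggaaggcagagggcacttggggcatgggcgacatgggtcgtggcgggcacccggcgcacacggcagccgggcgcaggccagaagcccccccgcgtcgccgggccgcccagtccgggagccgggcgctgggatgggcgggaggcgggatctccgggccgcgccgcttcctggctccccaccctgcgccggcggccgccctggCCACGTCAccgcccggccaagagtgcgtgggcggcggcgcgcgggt
SRP19: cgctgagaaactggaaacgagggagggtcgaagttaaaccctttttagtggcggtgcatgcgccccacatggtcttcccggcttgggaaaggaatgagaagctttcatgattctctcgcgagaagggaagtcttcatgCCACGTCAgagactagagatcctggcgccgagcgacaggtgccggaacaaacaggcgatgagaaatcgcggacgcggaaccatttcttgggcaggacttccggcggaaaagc
SEC62: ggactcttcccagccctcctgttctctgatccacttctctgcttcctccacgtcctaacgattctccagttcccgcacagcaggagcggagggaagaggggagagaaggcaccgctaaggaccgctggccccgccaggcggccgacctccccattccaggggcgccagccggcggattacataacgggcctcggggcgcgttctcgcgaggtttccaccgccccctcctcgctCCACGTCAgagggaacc
SEC11C: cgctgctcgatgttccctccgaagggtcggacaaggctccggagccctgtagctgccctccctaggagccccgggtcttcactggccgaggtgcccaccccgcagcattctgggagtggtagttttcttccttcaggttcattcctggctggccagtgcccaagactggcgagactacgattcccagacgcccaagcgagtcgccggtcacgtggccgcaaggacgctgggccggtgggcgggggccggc

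The motif began 46 bases before the start in KDELR3, 112 bases before it in SRP19 and 17 bases before it in SEC62. RefSeq promoter windows of 300 bases, 250 before and 50 after a start, were at hand for 30 of the 34 members, in 40 windows, and not for TUSC3, SPCS1, MOGS and RPN1. The UPRE core was found on either strand in 4 of the 40 windows (10%), those of KDELR3, SRP19, SEC62 and SEC23A, against 0.729% of all 35116 windows. In SEC23A it spanned the start. The longer ER stress elements ERSE and ERSE-II were in 0 of the 40 windows, against 0.0769% and 0.0541% of all windows. A match is a description of these letters only, and the motifs were chosen with earlier results of these data known. The set of all windows was not matched to the members in base composition or signal. Both strands were searched, and since the UPRE core was the only motif found in member windows, no overlap between motifs could arise there.

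Most of the measured genes of ER entry, glycosylation and export had lower signal in H2A.X-KO cells. Falls were called in 26 of the 34 genes (76.5%) and rises in 2, and 6 gave no call, while over all genes 19.0% fell and 15.3% rose. The members are brightly expressed, 33 of 34 lying above the median of all gene means, and among the 7442 genes above that median 31.5% fell and 24.1% rose. The median difference of the members was -0.37, against 0.00 over all genes and -0.03 over the brighter ones. A fall of at least 0.5 was seen in 13 members (38.2%), against 7.23% of all genes and 12.2% of the brighter ones. In 26 members every H2A.X-KO array lay below every WT array, and in 2 every H2A.X-KO array lay above, against 16.0% and 12.2% of all genes. Among the 7442 brighter genes, 2084 lay below in this way and 1555 above.

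**Figure D1:**
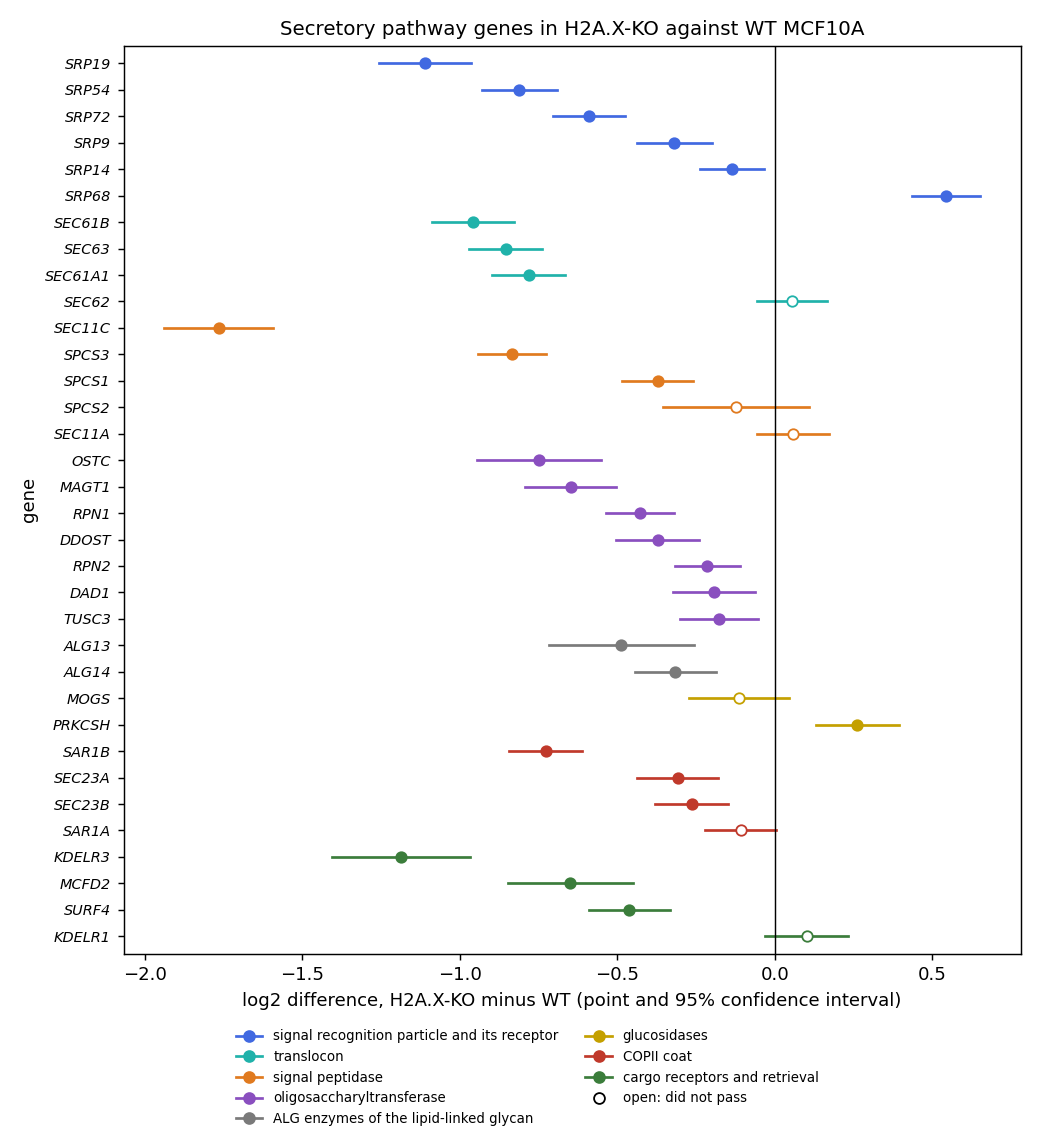
Log2 difference (H2A.X-KO minus WT, horizontal axis) of each of the 34 measured members, coloured by role, with its 95% confidence interval from limma. Filled points passed the test. Most points lie left of 0, from SEC11C at -1.77 on the left to SRP68 at 0.54 on the right.

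The members were lower on every knockout array. The median over the 34 members, each taken relative to its WT mean, was -0.38, -0.36, -0.34, -0.36 and -0.41 on H2A.X-KO arrays 1 to 5, against -0.02, 0.02, 0.01, 0.02 and -0.03 on WT arrays 1 to 5. The WT values lie near 0 by construction, since the WT mean was taken from those arrays. On each H2A.X-KO array 28 or 29 of the 34 members lay under their WT mean, and on the WT arrays 10 to 24 did. By group means, 29 of the 34 members had a difference below 0, against 7435 of all 14884 genes and 3988 of the 7442 brighter ones. H2A.X-KO replicate 1 was the lowest of its group in 13 members and replicate 5 in 12, and without replicate 1 the number that fell was 24.

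**Figure D2:**
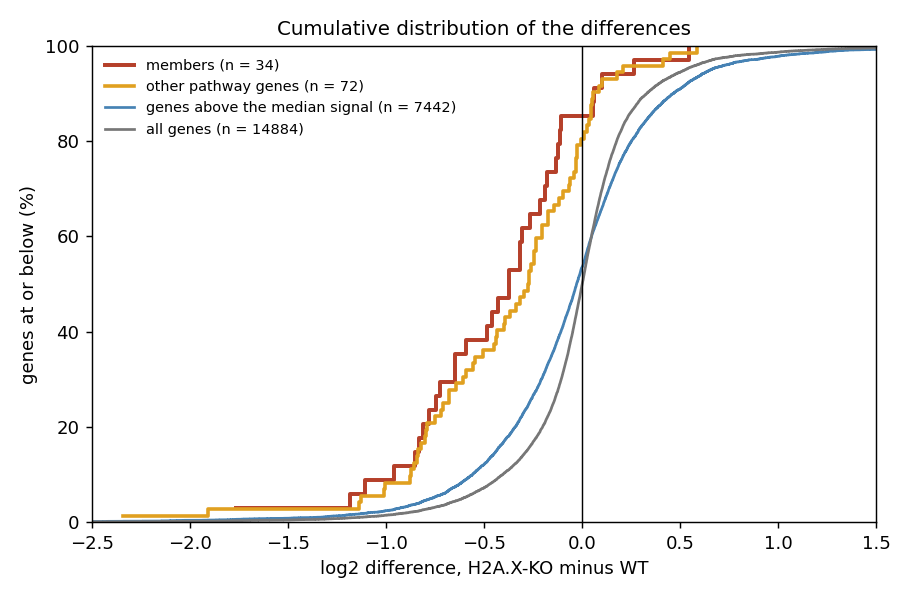
Cumulative share of genes (vertical axis, %) at or below each log2 difference (H2A.X-KO minus WT, horizontal axis) for the measured members, the other pathway genes, the brighter genes and all genes. The curve of the 34 members lies left of the curves of the 7442 brighter genes and of all 14884 genes over most of its range, with a median of -0.37.

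Targeting by SRP showed both falls and a rise. Falls were called in 5 of its 6 measured genes and a rise in 1, with a median of -0.45. SRP19 helps fold the SRP RNA so that SRP54 can bind. SRP19 (probe set 16988049) had log2 signals of 5.68, 5.62, 5.86, 5.52 and 5.59 on the H2A.X-KO arrays, against 6.76, 6.75, 6.79, 6.82 and 6.70 on the WT arrays. The groups were 0.83 apart at their nearest arrays, and the difference was -1.11 ± 0.07 (SE), 2.16-fold lower (limma, adjusted p = 4.86e-08). SRP54, the GTPase that binds the signal sequence, had 7.33, 7.32, 7.33, 7.27 and 7.22 on the H2A.X-KO arrays, against 8.16, 8.18, 8.05, 8.12 and 8.01 on the WT arrays. It fell by 0.81 (adjusted p = 1.36e-07), with no overlap between the groups.

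SRP68 and SRP72 form a dimer in the same particle and moved apart. SRP72 averaged 11.20 ± 0.06 in H2A.X-KO cells and 11.79 ± 0.05 in WT cells (SD, n = 5 each) and fell by 0.59. SRP68 (probe set 16849072) had 10.09, 10.02, 10.06, 10.13 and 10.01 on the H2A.X-KO arrays, against 9.48, 9.52, 9.56, 9.53 and 9.50 on the WT arrays. All 5 H2A.X-KO arrays lay above all WT arrays, and it rose by 0.54 ± 0.05 (adjusted p = 1.92e-06). SRP68 lies on chromosome 17 among genes that were higher as well: the 20 nearest measured genes above the median signal, 10 on each side, had a median difference of 0.26, with 16 of 20 above 0. The part of the region in its rise was not tested. SRP9 and SRP14, which pause translation at the ribosome, fell by 0.32 and by 0.14. SRP14 was just inside the threshold (adjusted p = 0.0401) and still passed without H2A.X-KO replicate 3, but did not pass when any of the other 9 arrays was left out (adjusted p of 0.0548 to 0.0851).

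The translocon genes fell, apart from SEC62, with a median of -0.82 over 4 measured members. SEC61B, a small subunit of the channel, had 8.99, 8.93, 9.07, 8.85 and 8.79 on the H2A.X-KO arrays, against 9.90, 9.89, 9.90, 9.88 and 9.85 on the WT arrays. It was nearly level over the WT arrays and lower on every H2A.X-KO array, a difference of -0.96 ± 0.06 or 1.94-fold (adjusted p = 7.16e-08). SEC61A1, the pore itself, had 10.59, 10.46, 10.62, 10.60 and 10.56 on the H2A.X-KO arrays, against 11.40, 11.35, 11.39, 11.27 and 11.33 on the WT arrays. It fell by 0.78 (adjusted p = 1.56e-07).

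SEC63 and SEC62 assist the channel, SEC63 by recruiting the chaperone BiP through its J domain. SEC63 had 9.56, 9.40, 9.49, 9.57 and 9.57 on the H2A.X-KO arrays, against 10.37, 10.42, 10.31, 10.36 and 10.40 on the WT arrays, and it fell by 0.85 with the groups 0.74 apart. SEC62 had 8.35, 8.42, 8.36, 8.34 and 8.33 on the H2A.X-KO arrays, against 8.24, 8.39, 8.29, 8.27 and 8.35 on the WT arrays. Its groups overlapped and its difference was 0.05, with a 95% confidence interval of -0.06 to 0.16 (adjusted p = 0.481), and its dimmer probe set gave -0.01.

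Signal peptidase held the largest fall, in a catalytic subunit whose paralog gave no call. SEC11C (probe set 16852666) had 7.35, 7.34, 7.56, 7.43 and 7.19 on the H2A.X-KO arrays, against 9.26, 9.25, 9.00, 9.02 and 9.17 on the WT arrays. The nearest arrays of the groups were 1.44 apart, the difference was -1.77 ± 0.08, and the signal in H2A.X-KO cells was 29.4% of that in WT cells (adjusted p = 3.98e-09). SEC11A, the other catalytic subunit, had 8.06, 8.03, 8.08, 8.02 and 8.01 on the H2A.X-KO arrays, against 8.04, 7.90, 7.93, 8.07 and 7.97 on the WT arrays. It differed by 0.06, with an interval of -0.05 to 0.17 (adjusted p = 0.447).

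Among the noncatalytic subunits SPCS3 had 8.56, 8.56, 8.59, 8.47 and 8.58 on the H2A.X-KO arrays, against 9.38, 9.41, 9.36, 9.42 and 9.36 on the WT arrays. It fell by 0.83 (adjusted p = 4.04e-08), with no overlap. SPCS1 fell by 0.37. SPCS2 was dim, at 3.83 ± 0.23 in H2A.X-KO cells and 3.95 ± 0.14 in WT cells (SD, n = 5 each), and its difference of -0.12 did not pass.

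**Figure D3:**
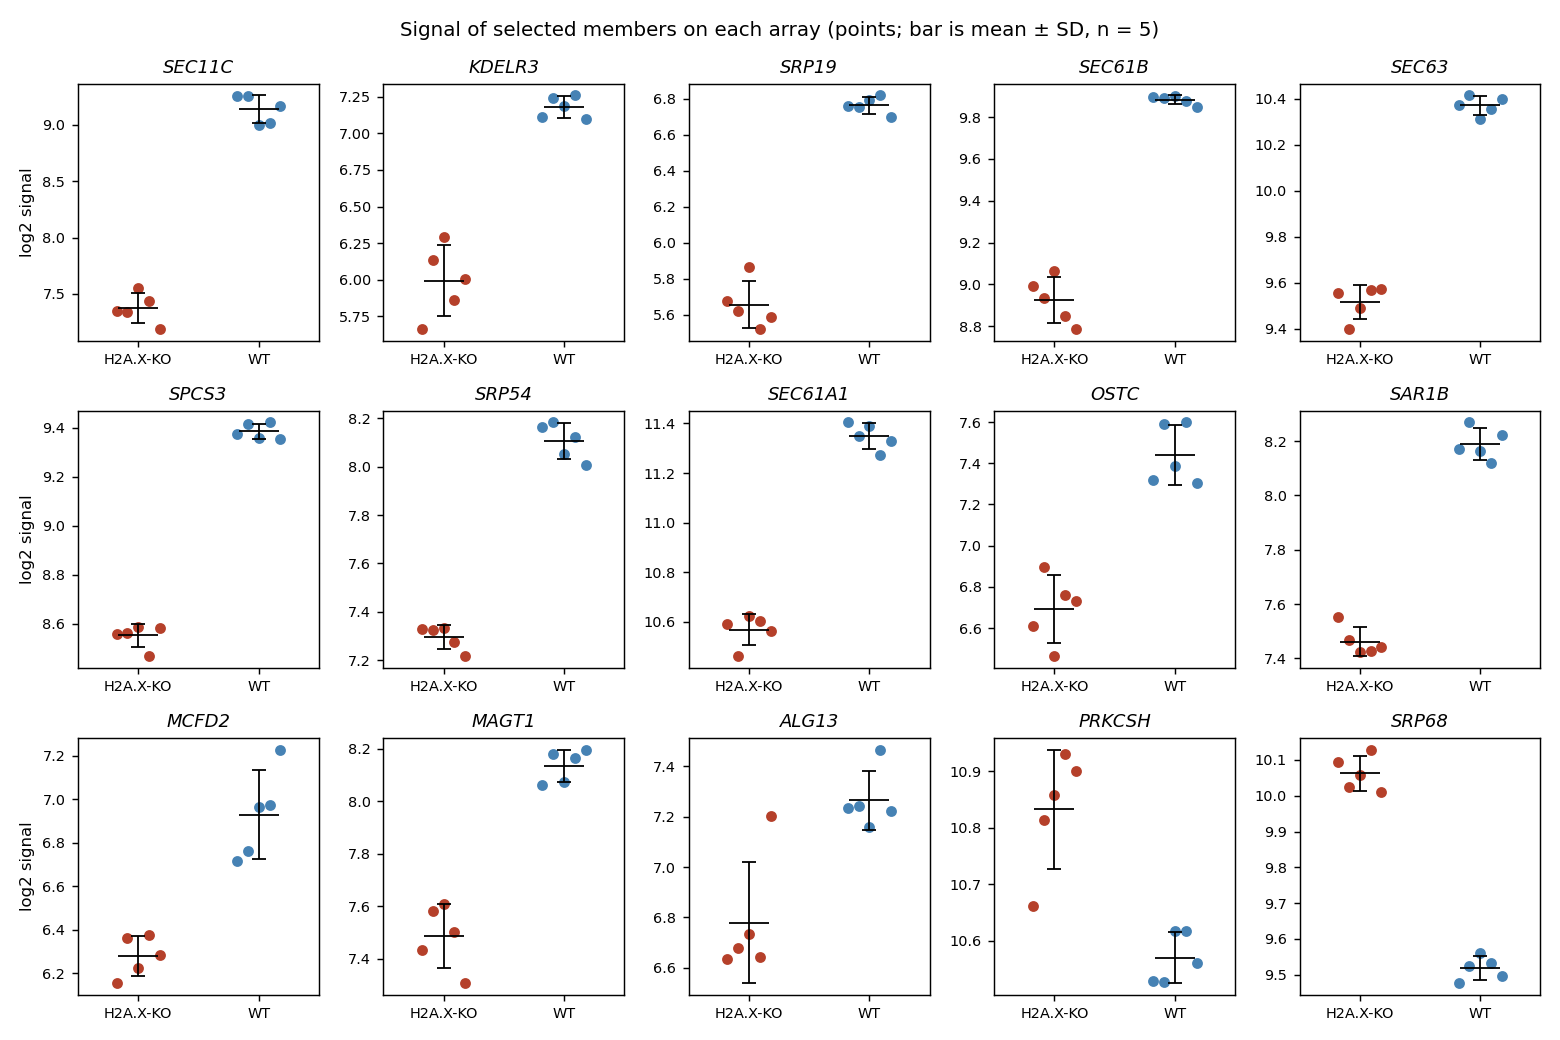
Log2 signal (vertical axis, a scale of its own in each panel that does not start at 0) of 15 members on each of 5 H2A.X-KO arrays and 5 WT arrays (points in replicate order), with bars for mean ± SD. The H2A.X-KO arrays lie below the WT arrays in the first 12 panels, overlap them in ALG13 and lie above them in PRKCSH and SRP68.

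All 7 measured oligosaccharyltransferase genes fell, by 0.18 to 0.75. OSTC, a subunit of the form of the enzyme that works at the translocon, had 6.61, 6.90, 6.46, 6.76 and 6.73 on the H2A.X-KO arrays, against 7.32, 7.59, 7.39, 7.60 and 7.30 on the WT arrays. Its groups were 0.41 apart, and it fell by 0.75 (adjusted p = 2.35e-05). MAGT1, a thioredoxin-like subunit of the STT3B form, had 7.44, 7.58, 7.61, 7.50 and 7.31 on the H2A.X-KO arrays, against 8.06, 8.18, 8.07, 8.16 and 8.20 on the WT arrays. It fell by 0.65 (adjusted p = 5.56e-06).

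Among the members, the subunits common to both forms of the enzyme fell by 0.19 to 0.43. Of the measured subunits outside the members, TMEM258 fell by 0.88, KRTCAP2 by 0.54 and OST4 by 0.27. RPN1, which helps present the protein substrate, averaged 9.69 ± 0.05 in H2A.X-KO cells and 10.12 ± 0.03 in WT cells (SD, n = 5 each) and fell by 0.43. DDOST averaged 8.82 ± 0.10 in H2A.X-KO cells and 9.19 ± 0.07 in WT cells (SD, n = 5 each) and fell by 0.37, RPN2 fell by 0.21 and DAD1 fell by 0.19. TUSC3, the paralog of MAGT1, fell by 0.18. DAD1 (adjusted p = 0.0248) and TUSC3 (adjusted p = 0.0274) were near the threshold. DAD1 did not pass without H2A.X-KO replicate 5 or without WT replicate 1 or 4 (adjusted p of 0.0520, 0.0537 and 0.0575). TUSC3 did not pass without H2A.X-KO replicate 1 or without WT replicate 1, 3 or 4 (adjusted p of 0.0503, 0.0590, 0.0588 and 0.0644).

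ALG13 and ALG14 together form the enzyme that adds the second sugar of the lipid-linked glycan, and both fell. ALG13 had 6.63, 6.68, 6.74, 6.64 and 7.20 on the H2A.X-KO arrays, against 7.23, 7.24, 7.16, 7.47 and 7.22 on the WT arrays. H2A.X-KO replicate 5 stood within the WT range while the other 4 lay below it, and the difference was -0.49 ± 0.11 (adjusted p = 0.00267), or -0.59 without that array. ALG14 averaged 7.66 ± 0.11 in H2A.X-KO cells and 7.98 ± 0.02 in WT cells (SD, n = 5 each) and fell by 0.32, with no overlap.

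Of the glucosidases, which trim glucose from the new glycan, neither measured gene was called lower. PRKCSH, the noncatalytic subunit of glucosidase II, had 10.66, 10.81, 10.86, 10.93 and 10.90 on the H2A.X-KO arrays, against 10.53, 10.53, 10.62, 10.62 and 10.56 on the WT arrays. It rose by 0.26 (adjusted p = 0.00401), with the groups 0.05 apart. MOGS, glucosidase I, averaged 7.25 ± 0.15 in H2A.X-KO cells and 7.37 ± 0.06 in WT cells (SD, n = 5 each), and its difference of -0.11 did not pass (adjusted p = 0.273).

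In the COPII coat 3 of 4 measured genes fell, with a median of -0.29. SAR1B, a GTPase that starts coat assembly, had 7.55, 7.47, 7.42, 7.43 and 7.44 on the H2A.X-KO arrays, against 8.17, 8.27, 8.16, 8.12 and 8.22 on the WT arrays. It fell by 0.73 (adjusted p = 2.53e-07), with the groups 0.57 apart. Its paralog SAR1A averaged 9.10 ± 0.07 in H2A.X-KO cells and 9.21 ± 0.03 in WT cells (SD, n = 5 each). Its difference was -0.11 (adjusted p = 0.136), although every H2A.X-KO array lay just below every WT array. SEC23A and SEC23B, alternative subunits of the inner coat, fell by 0.31 and by 0.26.

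Cargo receptors showed a wide range, with 3 of 4 measured genes lower and a median of -0.55. KDELR3 (probe set 16930066), a receptor that returns escaped ER chaperones and has the UPRE core shown above, had 5.66, 6.14, 6.29, 5.86 and 6.00 on the H2A.X-KO arrays, against 7.11, 7.24, 7.19, 7.26 and 7.10 on the WT arrays. The H2A.X-KO arrays were more spread than the WT arrays but lay at least 0.80 below them, and the difference was -1.19 ± 0.10, 2.28-fold lower (adjusted p = 1.13e-06). KDELR1 averaged 9.31 ± 0.06 in H2A.X-KO cells and 9.21 ± 0.10 in WT cells (SD, n = 5 each), and its difference of 0.10 did not pass (adjusted p = 0.241).

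MCFD2 is the partner of LMAN1 in the receptor for blood coagulation factors. MCFD2 had 6.16, 6.36, 6.22, 6.37 and 6.28 on the H2A.X-KO arrays, against 6.71, 6.76, 6.96, 6.97 and 7.23 on the WT arrays. It fell by 0.65 (adjusted p = 9.38e-05). SURF4, a receptor for soluble cargo, averaged 8.19 ± 0.10 in H2A.X-KO cells and 8.65 ± 0.04 in WT cells (SD, n = 5 each) and fell by 0.46.

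The 2 genes of a paralog pair differed in their response in 4 of the 5 pairs measured, tested on the difference between the 2 probe sets within each array. The pairs were chosen with earlier results of these data known. The tests use the same arrays as the differences above and are no separate evidence for them. Of 13 pairs listed, 5 had both genes measured, and 4 of the 5 passed a two-sided exact permutation test over all splits of the arrays, with p-values adjusted over the 5 pairs. A level set between 2 probe sets has no meaning of its own, and only its change between groups is read. SEC11C minus SEC11A was -0.67 ± 0.11 in H2A.X-KO cells and 1.16 ± 0.15 in WT cells (SD, n = 5 each), a change of -1.82 ± 0.09 (SE). KDELR3 minus KDELR1 changed by -1.29 ± 0.11 and SAR1B minus SAR1A by -0.62 ± 0.05. TUSC3 minus MAGT1 was 0.74 ± 0.15 in H2A.X-KO cells and 0.28 ± 0.10 in WT cells, a change of 0.47 ± 0.08, beside falls of 0.65 in MAGT1 and 0.18 in TUSC3. In each of these 4 pairs the groups did not overlap, and p was 0.00794, the smallest that the exact test can give (adjusted p = 0.00992, exact permutation test). SEC23B minus SEC23A was 1.83 ± 0.07 in H2A.X-KO cells and 1.79 ± 0.05 in WT cells, and its change of 0.04 ± 0.04 did not pass (p = 0.270, exact permutation test). Taken singly, 16.0% of all genes had every H2A.X-KO array below every WT array and 12.2% had every one above. How often pairs of unrelated genes would pass was not examined, so the count is not read as a trait of paralogs. Cross-hybridisation between paralogs was not tested.

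**Figure D4:**
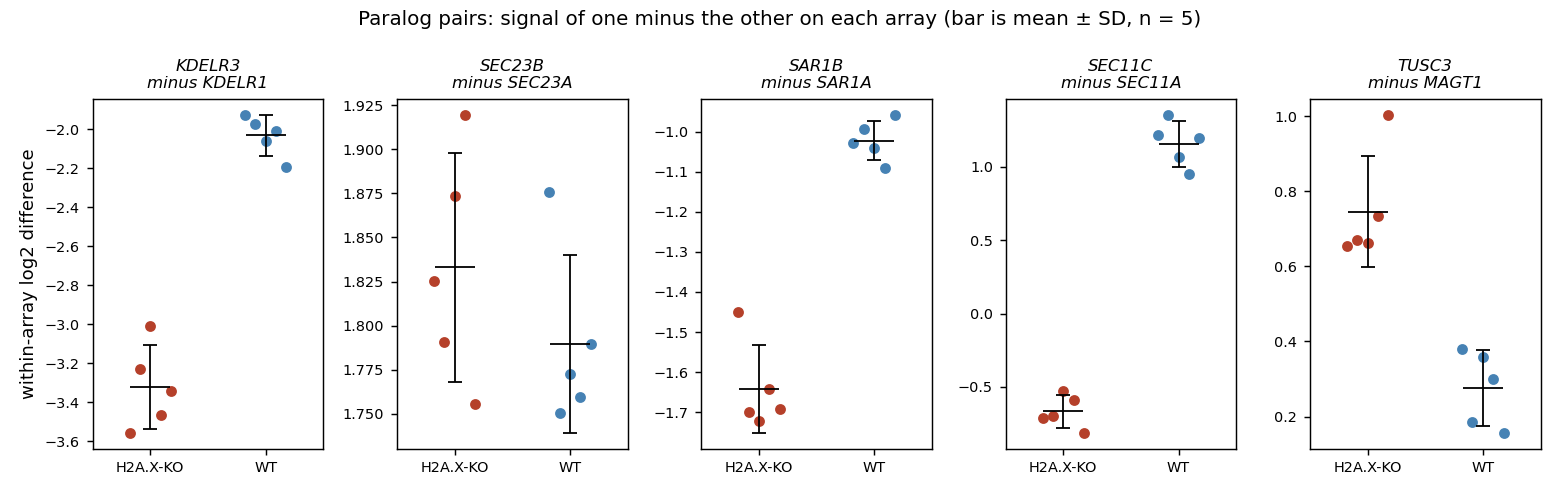
Log2 signal of a gene minus that of its paralog on each of 5 H2A.X-KO arrays and 5 WT arrays (vertical axes differ between panels and do not start at 0), with bars for mean ± SD. The groups are apart in every pair but SEC23B minus SEC23A, where they overlap.

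The members lie on many chromosomes, and the genes around each were examined as well. The 20 nearest bright genes around a member had median differences of -0.29 to 0.26, with a median of -0.03 over the 34 members, and 7 of the 34 lay beyond 0.15 in either direction. Around SEC11C and KDELR3 the medians were 0.07 and -0.11. Around SPCS3 and SRP9 they were -0.27 and -0.29, beside falls of 0.83 and 0.32, and around OSTC, SRP72 and TUSC3 -0.19, -0.19 and -0.22. RPN2, which fell, had neighbours with a median of 0.18. The part of the neighbourhood in these differences was not tested.

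Other genes of the pathway came from 5 lists of 109 genes in all, of which 72 were measured, 66 of them above the median signal. Falls were called in 46 of the 72 (63.9%), against 19.0% of all genes and 31.5% of the brighter ones. Rises were called in 4 (5.56%), against 15.3% of all genes and 24.1% of the brighter ones. The other 22 did not pass, and the median difference over the 72 was -0.27. Targeting and translocation genes fell in 10 of 20 and rose in 3, TRAM2 (0.45), CAMLG (0.41) and EMC3 (0.21). SRPRA, the receptor of SRP, averaged 8.81 ± 0.05 in H2A.X-KO cells and 10.72 ± 0.01 in WT cells (SD, n = 5 each), and fell by 1.91. It lies on chromosome 11 among lower genes, and 19 of its 20 nearest bright genes were lower, with a median of -0.73. EMC8 and EMC7, subunits of the ER membrane complex that inserts membrane proteins, fell by 0.87 and by 0.80. The complex did not move as a whole. MMGT1, the subunit also called EMC5, fell by 0.68 with no overlap between the groups, while its dimmer probe set gave -0.15. EMC6 and EMC9 fell by 0.23 and by 0.28, EMC3 rose, and EMC1, EMC2, EMC4 and EMC10 did not pass.

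Genes of sugar donor synthesis and of the oligosaccharyltransferase outside the members fell in 11 of 17, with 1 rise, that of MPI (0.58). Among these falls, DPAGT1 fell by 0.86 and lies on chromosome 11. All 20 of its nearest bright genes were lower, with a median of -0.79, and the part of the region was not tested. GFPT1, the rate-limiting enzyme of the hexosamine pathway that makes UDP-GlcNAc, averaged 8.81 ± 0.06 in H2A.X-KO cells and 11.15 ± 0.05 in WT cells (SD, n = 5 each). It fell by 2.34, or 5.07-fold (limma, adjusted p = 2.80e-11). GMPPA, a regulatory subunit in GDP-mannose synthesis, fell by 1.01, and TMEM258 by 0.88.

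All 4 measured genes of glycoprotein folding fell, UGGT1, which tags misfolded glycoproteins, by 0.80, and the lectin chaperones CANX and CALR by 0.50 and by 0.32. ER exit genes fell in 17 of 27 with 0 rises, led by STX5 (-1.14), a SNARE at the Golgi, TMED9 (-0.84), a cargo receptor, and YIF1B (-0.79). Of COPI genes, which serve retrieval, all 4 measured fell. ARCN1, the delta coat subunit, fell by 1.13 and lies on chromosome 11 among genes with a median of -0.67. ARF4 and ARF1, GTPases that recruit the coat, fell by 1.01 and by 0.59.

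**Figure D5:**
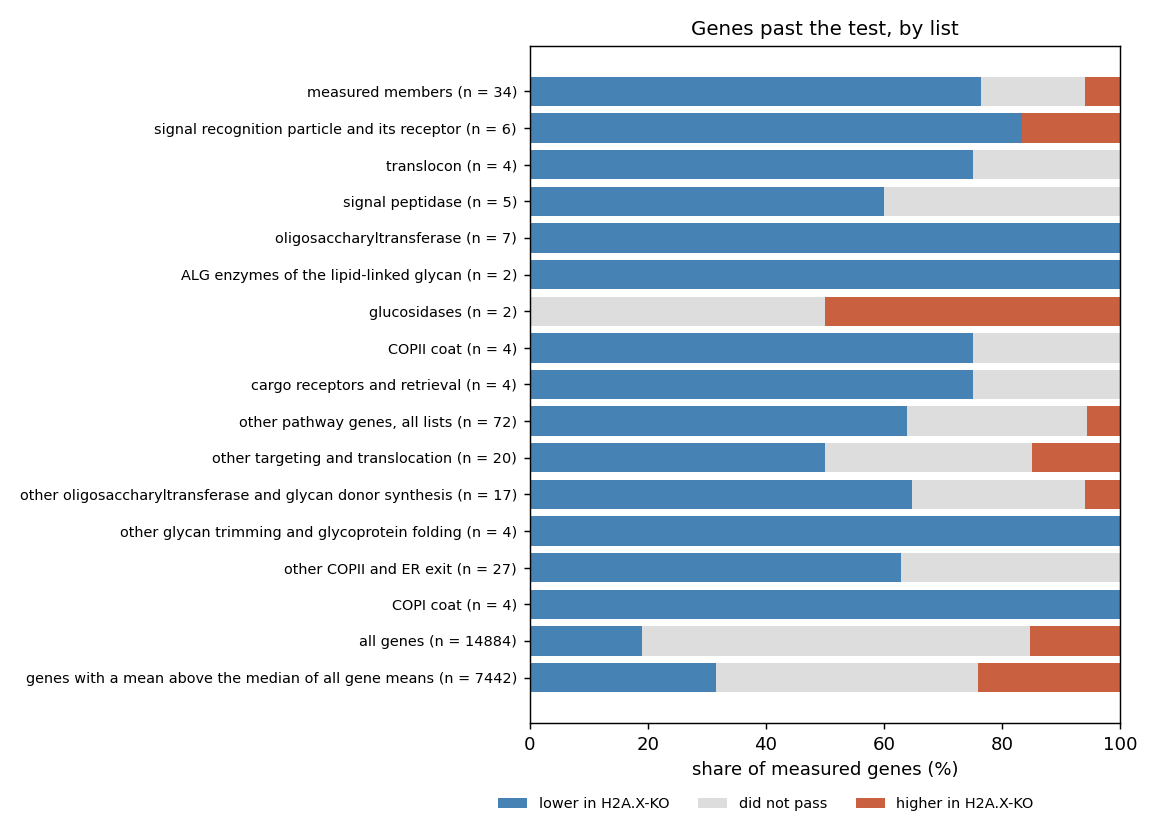
Share of measured genes (horizontal axis, %) that passed the test as lower, did not pass, or passed as higher in H2A.X-KO cells, for each role among the members, each list of other pathway genes, and the background. Lower genes make up 76.5% of the members and 63.9% of the other pathway genes, against 19.0% of all genes and 31.5% of the brighter ones.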

How the data were processed

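The authors deposited a table of log2 signals for 53617 probe sets on 10 arrays. Per the labels' protocols, biotin-labelled RNA was made from 1 ug of total RNA. The submitters' processing notes name Affymetrix Expression Console and Partek 6.6. The sources used here give neither their order nor the summarisation or filters. A log2 scale was inferred from the range of the deposited values, 1.13 to 13.87. Signals were already level between arrays, which hides any change shared by all transcripts.

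Genes were named by the platform annotation, updated by Entrez identifier in RefSeq (GRCh38.p14): 16098 probe sets had 1 symbol, 0 several and 37519 none. The brightest probe set stood for each gene. All 14884 genes were fitted with lmFit and eBayes of limma 3.58.1 (R 4.3.3), with no covariate and no filter on dim genes. The median standard error of a difference was 0.08, and the number of arrays limits the precision. The procedure was tested on simulated data. Python 3.11.15 with numpy 2.4.6 and pandas 2.3.3 served for the permutation tests, motif searches and, with matplotlib 3.10.9, plots.

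The members, lists, motifs and pairs were chosen with earlier results of these data known. Array values are given for the 12 members with the largest differences that passed without overlap and for the leading member of each role. Array values of SRP68, SEC62 and SEC11A were added after their values were seen. Up to 3 genes of each other list were named by the same rule. TRAM2, CAMLG, MPI, MMGT1, DPAGT1, KRTCAP2, OST4 and the EMC genes other than EMC7 and EMC8 were named after their values were seen. Neighbouring genes were counted after seeing the data. Alternatives were quantile normalisation, centring, a filter on dim genes, an intensity trend, array weights, a replicate block, averaged probe sets, adjustment over all probe sets, omission of each array, and omission of members on chromosomes 11 and 17.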

Additional observations from a re-analysis of the deposited data

Results flagged for a closer look

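In 8 of 108 groups of 5 arrays examined for the members, the pathway genes named by rule and the paralog pairs, an array lay far from the others of its group by Dixon's ratio. Chance gives about 5%. ALG13 was at 7.20 on H2A.X-KO replicate 5, against 6.63 to 6.74 on the other H2A.X-KO arrays, and at 7.47 on WT replicate 4, against 7.16 to 7.24 on the other WT arrays. DAD1 was at 10.90 on H2A.X-KO replicate 5, against 11.10 to 11.17, and TUSC3 minus MAGT1 was 1.00 on the same array, against 0.66 to 0.73. DDOST was at 8.66 on H2A.X-KO replicate 1, against 8.84 to 8.89. SPCS3 was at 8.47 on H2A.X-KO replicate 4, against 8.56 to 8.59. SEC62 was at 8.42 and GMPPA at 6.90 on H2A.X-KO replicate 2, against 8.33 to 8.36 and 6.57 to 6.64 on the others.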

How the results depend on the processing

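The number of members that fell was 26, and 23 to 27 under the alternatives, with 2 rises under each, except that omitting the members on chromosomes 11 and 17, SRP68 among them, left 1. With an array left out it was 23 to 26, with 2 rises, and the median was -0.39 to -0.36. The median was -0.33 under quantile normalisation, -0.40 with arrays centred on their medians and -0.40 without members on chromosomes 11 and 17. No member changed direction under the alternatives run. The calls of SRP14, DAD1 and TUSC3 ended under quantile normalisation (adjusted p = 0.130, 0.0618 and 0.0536) and with adjustment over all probe sets (0.0936, 0.0627 and 0.0679). SAR1A passed with an intensity trend (adjusted p = 0.0418). The causes were not tested. Other pathway genes had 41 to 45 falls with an array left out and 44 to 47 under quantile normalisation, centring or averaged probe sets, with 4 rises each time. The changes between paralogs with an array left out were -1.37 to -1.23 for KDELR3 minus KDELR1, -0.67 to -0.60 for SAR1B minus SAR1A, -1.88 to -1.78 for SEC11C minus SEC11A, 0.40 to 0.50 for TUSC3 minus MAGT1 and 0.02 to 0.07 for SEC23B minus SEC23A.

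The replicate numbers did not pair the samples: deviations of same-numbered samples correlated at -0.01 to 0.20, and not every sample correlated best with its own number. With the number as a replicate block, 24 members fell and 2 rose, and SRP14 and TUSC3 did not pass (adjusted p = 0.100 and 0.0661). An exact sign-flip test over the 5 numbers as a replicate block gave p = 0.0625 (exact permutation of signs), the smallest it can give, for the changes of -1.29 (KDELR3 minus KDELR1), -0.62 (SAR1B minus SAR1A), -1.82 (SEC11C minus SEC11A) and 0.47 (TUSC3 minus MAGT1).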
